A study of Mus musculus with 12 samples.

Results

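The cytosolic ribosomal protein genes are the genes whose products, with the ribosomal RNAs, build the ribosome of the cytoplasm. They were picked by symbol from the gene symbols counted in polyA RNA of mouse gastruloids: *Rpl* or *Rps* followed by a number, with an optional letter or paralog suffix, and *Rplp0*, *Rplp1*, *Rplp2* and *Rpsa*. Symbols of pseudogenes ending in -ps and the *Rps6k* kinases were left out. This gave 85 genes of 38911 symbols, with 165 RefSeq transcripts. Of these, 77 encode core proteins, 31 of the small and 46 of the large subunit, and 8 are paralogs of core genes. The counts of 83 of the 85 genes were high enough for a test.

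Gastruloids are aggregates of embryonic stem (ES) cells that form mesoderm at one pole and elongate in culture. Here they were made from the mouse ES cell line E14TG2a, kept in 2i and LIF, and were harvested on day 4. Treatment covered the last day of culture and consisted of 1X glucose (21.25 mM), 0X glucose (0 mM), 3X glucose (63.75 mM) or 2-DG (5 mM 2-deoxy-D-glucose, a glucose analog that blocks glycolysis, in 21.25 mM glucose). Each of the 4 groups has 3 libraries, 1 from each of ES cell passages 13, 15 and 16, and every library was made from pooled gastruloids of this single line, for which the labels give no transgene or mutation. The p-values below therefore measure the spread between libraries of 1 line, and anything else that the 4 libraries of a passage share cannot be told apart from the passage.

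A ribosome needs 1 copy of nearly every protein of both subunits, and the genes for them are transcribed at high and similar rates in growing cells. Their mRNAs usually start with a C followed by a run of pyrimidines, the terminal oligopyrimidine (TOP) tract. The kinase complex mTORC1 controls the translation of such mRNAs through this tract, by way of the TOP-binding protein Larp1 and other factors, in response to nutrients. Free ribosomal proteins such as Rpl5 and Rpl11 bind Mdm2 and so stabilise p53 when ribosome assembly is disturbed. A few ribosomal protein genes have paralogs that are used in particular tissues, such as *Rpl10l* in testis and *Rpl3l* in heart and skeletal muscle.

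The starts of 7 of these genes show the tract and its absence. The sequences run from 40 bases before to 20 bases after the annotated start in the RefSeq annotation of GRCm38.p6, 5′ to 3′ on the strand of the gene, and capitals mark a tract of at least 5 C or T that begins with a C within 5 bases of the start. *Rpl27a* (chr7:109519155-109519214, plus strand) has the longest tract of all ribosomal protein genes with a window. *Rps6* (chr4:86857348-86857407, minus strand) and *Rpl13a* (chr7:45128726-45128785, minus strand) were called higher in 2-DG once the passages were matched. *Rpl38* (chr11:114668540-114668599, plus strand) and *Rpl22l1* (chr3:28805468-28805527, plus strand) were among the highest in passage 13. *Rpl10* (chrX:74270776-74270835, plus strand) had the largest difference in 2-DG among the core genes, and *Rpl7l1* (chr17:46782637-46782696, minus strand) was called lower in 2-DG without that matching. Neither *Rpl10* nor *Rpl7l1* has such a tract at the annotated start.
Rpl27a: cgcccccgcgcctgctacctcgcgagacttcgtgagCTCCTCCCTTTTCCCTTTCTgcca
Rps6: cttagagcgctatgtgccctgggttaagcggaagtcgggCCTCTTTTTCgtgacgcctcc
Rpl13a: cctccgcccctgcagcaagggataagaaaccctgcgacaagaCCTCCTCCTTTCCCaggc
Rpl38: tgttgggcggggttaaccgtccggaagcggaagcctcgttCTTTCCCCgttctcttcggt
Rpl22l1: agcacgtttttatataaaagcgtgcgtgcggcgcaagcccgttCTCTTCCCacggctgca
Rpl10: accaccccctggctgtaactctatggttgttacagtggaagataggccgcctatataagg
Rpl7l1: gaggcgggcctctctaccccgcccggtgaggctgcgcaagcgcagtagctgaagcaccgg

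A window was given for 64 of the 85 genes, 76 windows in all, and 21 genes had none. A tract was found in 30 of the 64 genes (46.9%), against 21.2% of the 27025 genes of the whole promoter table. The median tract was 8 bases long and the longest 20. In the windows from 250 bases before to 50 after the start, searched on both strands, the ETS-type motif CCGGAAG was present in 26 genes (40.6%, against 9.93% of all genes) and the YY1-type motif AAGATGGC in 6 (9.38%, against 3.19%). The TATA box sequence TATAAA, searched on the sense strand in the 50 bases before the start, was found only in *Rpl22l1* among the 64 genes (1.56%, against 3.15% of all genes). These are matches of letters and not measured binding or start sites.

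The libraries held 31902471 to 45956080 counts, and the 1X glucose library was the deepest of its passage in all 3 passages. Levels are given as CPM, which are the counts of a gene scaled to a common library total, after scaling by edgeR's TMM factors. Core genes had 1450 to 74108 counts in every library, and counting error was not estimated apart from the other spread between libraries. The 11 symbols of ribosomal protein pseudogenes held counts equal to 4.3% to 4.76% of those on the 85 genes, and how reads of near-identical copies were split between genes is uncertain. The 6 ES cell markers summed to 74.23 to 222.1 CPM and the 6 primitive streak and mesoderm markers to 307.4 to 796.1 CPM over all libraries, and the 3 erythroid markers to no more than 0.108 CPM.

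Ribosomal protein genes took between 3.266% and 3.9755% of all counts, and this share followed the passage more than the treatment. In passage 13 the share was 3.9755% in 0X, 3.8366% in 1X and 3.7746% in 3X glucose and 3.9407% in 2-DG. In passage 15 it was 3.3954%, 3.5372%, 3.5098% and 3.5009% in the same order, and in passage 16 it was 3.5438%, 3.266%, 3.4197% and 3.5787%. The 4 libraries of passage 13 all lay above the 8 others, whereas the ranges of the 4 treatments overlapped. By passage the share was 3.88% ± 0.0927 (SD, n = 4), 3.49% ± 0.0622 and 3.45% ± 0.142, and by treatment 3.64% ± 0.301 (SD, n = 3) in 0X, 3.55% ± 0.285 in 1X and 3.57% ± 0.185 in 3X glucose and 3.67% ± 0.235 in 2-DG. In bulk RNA, fewer cells of a type and less RNA per cell cannot be told apart, and the share is given as a description with no test.

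**Figure D1:**
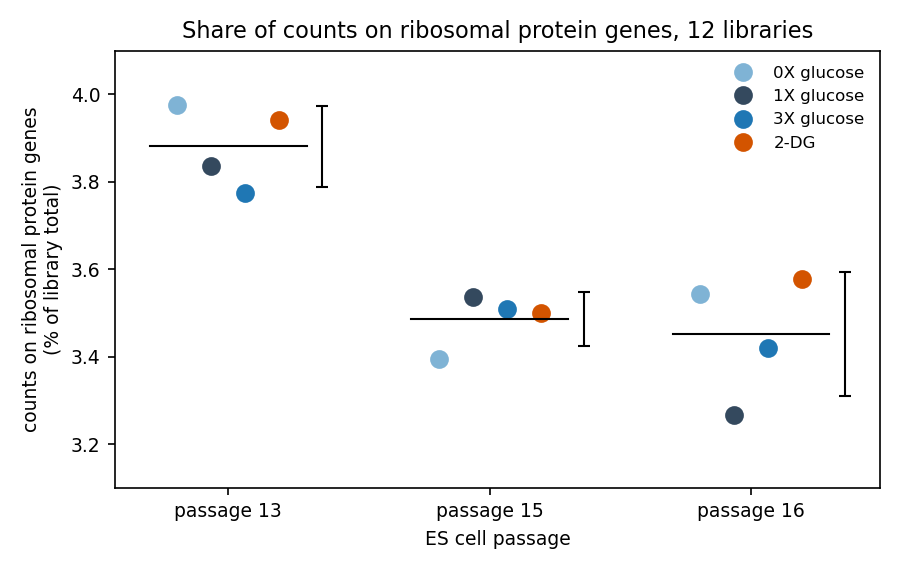
Counts on the 85 ribosomal protein genes as a percentage of all counts of a library (vertical axis, from 3.1%), by ES cell passage (horizontal axis). Each point is 1 library, coloured by treatment, and lines and bars give the mean and SD of the 4 libraries of a passage. All 4 points of passage 13 lie at 3.7746% or above, and the highest of the 8 others is at 3.5787%.

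Divided by transcript length, the levels of core genes had a median of 485.8 CPM per kb, against 8.633 CPM per kb for all tested genes with a length. The highest were *Rpl8* (1132 ± 58.1 CPM per kb, SD, n = 12 libraries), *Rpl32* (1114 ± 62.0), *Rpl4* (1053 ± 58.8) and *Rps24* (1032 ± 71.5), and the ranges of these 4 genes overlapped, so that neighbours in this order do not differ beyond their spread. The lowest of the tested genes were *Rpl7l1* (88.59 ± 4.59), *Rpl21* (87.52 ± 6.77), *Rpl29* (63.63 ± 5.12), *Rps15a* (55.35 ± 3.76) and *Rpl10l* (0.242 ± 0.114). The place of *Rps15a* rests on a paired transcript model of 5179 bases, against a median of 816 bases for these genes. Over coding length alone, the short *Rpl41* was highest at 5249 CPM per kb and *Rpl29* was the lowest core gene at 97.17 CPM per kb.

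The first comparison asked whether 2-DG changed these genes. As a sugar analog 2-DG also competes with mannose in protein glycosylation, and the comparison cannot tell this from the block of glycolysis. With 2-DG, the transcripts of cytosolic ribosomal protein genes stayed close to their level in 1X glucose. The median log2 fold change of the 83 genes was 0.056 (all tested genes 0.0023), the values ran from -0.20 to 0.24, and 67 of 83 were above 0. Without a term for the passage, edgeR's quasi-likelihood test with Benjamini-Hochberg adjustment over 16966 genes called 0 genes higher and 1 lower, where 9.12% of all genes tested were called higher and 8.51% lower. An unadjusted p under 0.05 was reached by 5 of the 83 (5376 of all 16966 tested genes), and DESeq2 called 2 higher and 1 lower. The genes that moved the same way in all 3 passages were 28 higher (33.7%) and 4 lower (4.82%), against 32.2% and 30.7% of all tested genes.

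The spread within a treatment came largely from the passages, and matching the libraries of a passage narrowed the errors. With the passage as a block, 16 genes were higher in 2-DG (19.3%, where 21.1% of all genes were called) and 2 lower (2.41%, where 20.2% were called). The share called higher was thus close to that of all genes, and the share called lower was below it. The count of 16 depended on depth and on single libraries: it was 1 when the library total was added to the blocked fit, 5 without the 1X library of passage 13 or either of the 2-DG libraries of passages 15 and 16, 7 without the 2-DG library of passage 13 and 2 without the 1X library of passage 16. The median log2 fold change without the block was -0.0058 when that last library was left out.

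*Rpl10*, whose protein joins the large subunit at a late step of its maturation, had the largest difference in 2-DG among the core genes. Its level in passage 13 was 645.0 CPM in 2-DG and 532.6, 549.2 and 530.2 CPM in 1X, 0X and 3X glucose. In passage 15 the same groups were at 568.8, 508.3, 498.0 and 498.6 CPM, and in passage 16 at 559.4, 463.7, 495.3 and 475.3 CPM. The 3 libraries of 2-DG were the highest of all 12. The log2 fold change against 1X glucose was 0.24 ± 0.074 (SE; 95% interval 0.073 to 0.40; edgeR adjusted p = 0.0506) without the block and 0.24 ± 0.033 (adjusted p = 0.000309) with it, a rise of 17.8% that passed the threshold in the blocked fit. It was 0.18 (edgeR adjusted p = 0.0274) with the block and the library total together, and 0.11 (adjusted p = 0.504) with the library total alone. Over 15 alternatives the adjusted p lay between 0.000309 and 0.504 and passed the threshold in 5.

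The gene called lower without the block was *Rpl7l1*, a paralog of *Rpl7* that acts in the maturation of the large subunit. Its levels in passages 13, 15 and 16 were 247.3, 239.8 and 230.7 CPM in 1X glucose and 220.6, 206.0 and 221.6 CPM in 2-DG, so that the groups did not overlap. The log2 fold change was -0.15 ± 0.046 (SE; edgeR adjusted p = 0.0479), and -0.15 ± 0.037 (adjusted p = 0.00819) with the block. The call was lost in 10 of 15 alternatives, among them leaving out either 2-DG library of passages 13 and 16 (adjusted p = 0.0739 and 0.0741), the 2-DG library of passage 15 (0.172) or the 1X libraries of passages 13 and 15 (0.134 and 0.104), and its values ran from -0.18 to -0.12. *Rpl7* itself, a core gene, was at 928.7, 901.3 and 801.8 CPM in 1X glucose and 917.2, 837.3 and 848.2 CPM in 2-DG, which overlap.

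*Rps4l* was the lowest gene in 2-DG. RefSeq lists it as a transcribed pseudogene, and it may share reads with *Rps4x*, the core gene it resembles. Its levels in passages 13, 15 and 16 were 167.3, 177.0 and 196.0 CPM in 1X glucose and 145.9, 154.4 and 171.8 CPM in 2-DG, lower in 3 of 3 passages although the groups overlap. The log2 fold change was -0.20 ± 0.10 (SE; edgeR adjusted p = 0.221) without and -0.20 ± 0.031 (adjusted p = 0.000644) with the block, in which it was called lower. *Rps4x* was at 952.8, 916.5 and 822.1 CPM in 1X glucose and 1010, 918.1 and 906.1 CPM in 2-DG.

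Genes of both subunits and of the stalk were among the others called higher with the block. *Rplp0*, the base of the ribosomal stalk that recruits elongation factors, was at 1102, 1042 and 964.5 CPM in 1X glucose and 1233, 1121 and 1105 CPM in 2-DG, and its blocked log2 fold change was 0.15 ± 0.033 (SE; edgeR adjusted p = 0.00362). *Rplp2*, a further stalk protein, had 0.12 (adjusted p = 0.0231), and *Rps6*, the substrate of the S6 kinases, had 0.12 (adjusted p = 0.0242). *Rps6* went from 772.6, 741.5 and 660.6 CPM to 826.4, 763.9 and 767.9 CPM. *Rpl13a* (0.14, adjusted p = 0.0114) went from 946.9, 944.5 and 865.7 CPM to 1058, 980.1 and 1005 CPM. The other calls were *Rps29* (0.17), *Rpl14*, *Rpl22l1*, *Rpl28*, *Rps19*, *Rps13*, *Rps18*, *Rps15a*, *Rps9*, *Rpl30* and *Rpl8*, with blocked adjusted p-values of 0.0194 to 0.0493. *Rpl23a* (0.16, blocked adjusted p = 0.0675) and *Rps27* (0.14, 0.0969) were among the highest values but did not pass, and *Rpl29* (-0.16, 0.0751), *Rpl27* (-0.098, 0.0769), *Rpl34* (-0.081, 0.102) and *Rpl21* (-0.066, 0.326) were among the lowest.

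Small and large subunit genes had similar values. The median log2 fold change was 0.070 for the 31 genes of the small and 0.046 for the 46 genes of the large subunit, with 30 and 34 above 0. With the block 7 (22.6%) and 8 (17.4%) were called higher, where 21.1% of all genes were. Genes with a start-site tract (27 core genes with a window) had a median of 0.054 and those without (30 genes) of 0.052. Markers moved in this comparison as well: the primitive streak and mesoderm markers summed to 307.4 to 515.4 CPM in 2-DG and 614.5 to 766.7 CPM in 1X glucose, and the 4 neural markers to 51.25 to 89.38 and 34.55 to 61.17 CPM. Of the 6 mesoderm markers, 2 were lower without the block (33.3%, where 8.51% of all genes were) and 4 with it (66.7%, where 20.2% were). None was called higher, though 2 had blocked values above 0. Of the neural markers, 2 were higher in either fit (50%, where 9.12% of all genes were without and 21.1% with the block), and 1 had a value below 0. The ES cell markers summed to 127.8 to 222.1 CPM in 2-DG and 78.11 to 168.8 CPM in 1X glucose. Without the block 0 of these 6 were called (where 9.12% of all genes were higher and 8.51% lower). With the block 4 were called higher (66.7%, where 21.1% of all genes were) and 0 lower, and 1 had a value below 0. *Sox2*, which neural progenitors express too, is 1 of the 6. The 2 endoderm markers summed to 0.498 to 3.06 and 0.878 to 5.88 CPM. Both were called lower with the block (where 20.2% of all genes were) and 0 without it (where 8.51% were). The part of cell composition in the differences of ribosomal protein genes was not tested.

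**Figure D2:**
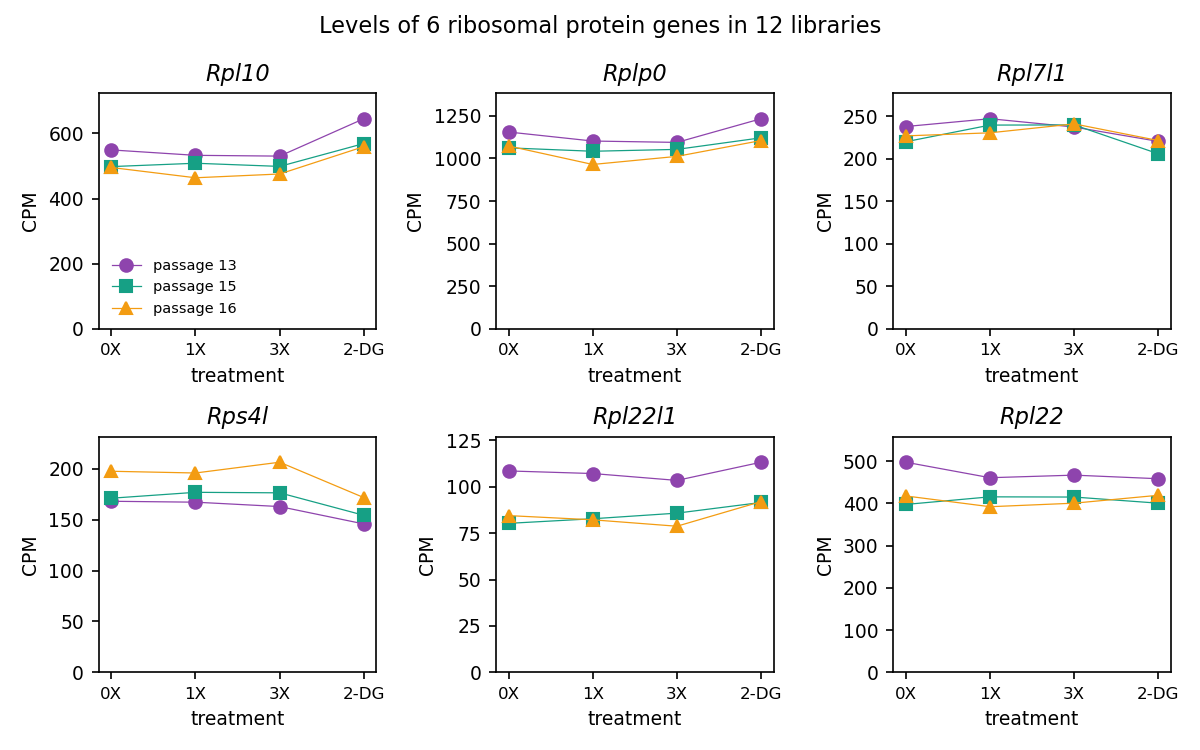
Levels of 6 genes in CPM (vertical axes, from 0) in 0X, 1X and 3X glucose and 2-DG (horizontal axes), with 1 point per library joined within passage 13 (circles), 15 (squares) and 16 (triangles). *Rpl10* and *Rplp0* are highest in 2-DG within each passage, *Rpl7l1* and *Rps4l* are lowest in 2-DG within each passage, and *Rpl22l1* and *Rpl22* are set apart by passage 13.

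Removal or excess of glucose gave no call among these genes. In 0X against 1X glucose the median log2 fold change was 0.068 (all genes 0.0012), 72 of 83 were above 0, and 0 were called, where 0.0118% of all genes were called in either direction. An unadjusted p under 0.05 was reached by 4 of the 83 (306 of all 16966 tested genes). With the passage as a block it was reached by 15 of the 83 (1591 of 16966), and edgeR called 0 with the block too (0.0177% of all genes). The highest core values were those of *Rps26* (0.18 ± 0.065, SE; edgeR adjusted p = 1.0), *Rps15* (0.15), *Rplp2* (0.14), *Rpl8* (0.13) and *Rpl4* (0.12). *Rps26* was at 471.9, 393.0 and 432.5 CPM in 0X and 377.3, 404.0 and 363.3 CPM in 1X glucose, so that only the libraries of passages 13 and 16 differed in this direction. The lowest were *Rpl17* (-0.11), *Rpl15* (-0.084), *Rpl7l1* (-0.067), *Rpl29* (-0.041), *Rps27l* (-0.038) and *Rpl19* (-0.020). The median was -0.016 without the 0X library of passage 13.

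In 3X against 1X glucose the median log2 fold change was 0.018 (all genes 0.0028), 59 of 83 were above 0, and edgeR called 0 genes with and without the block, where 0.0% of all genes were called. An unadjusted p under 0.05 was reached by 0 of the 83 (178 of all 16966 tested genes), and by 1 with the block (876 of 16966). The values of the core genes ran from -0.096 (*Rpl17*), -0.079 (*Rpl29*) and -0.064 (*Rpl15*) to 0.10 (*Rps21*), 0.11 (*Rps29*) and 0.11 (*Rplp1*). *Rplp1*, a stalk protein, was at 402.7, 361.1 and 358.6 CPM in 3X and 367.2, 343.5 and 326.6 CPM in 1X glucose. The median turned to -0.037 without the 1X library of passage 16 and to -0.018 without the 3X library of passage 13.

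All 3 comparisons above share the 1X libraries, each of which was also the deepest of its passage. With the library total as a covariate and no block, the median log2 fold change was -0.076 for 2-DG, -0.12 for 0X and -0.11 for 3X glucose against 1X glucose, all opposite in sign to the medians without it. Compared with 0X glucose instead, 2-DG gave a median of -0.015 (all genes 0.00049), with 32 of 83 above 0. Without the block 0 genes were called, where 9.86% of all genes were higher and 9.04% lower. An unadjusted p under 0.05 was reached by 1 of the 83 (5603 of all 16966 tested genes). With the block 3 genes were higher and 1 lower, where 21.5% of all genes were called in each direction: *Rpl10* (0.20 ± 0.033, SE; edgeR adjusted p = 0.000785), *Rpl22l1* (0.12 ± 0.038; adjusted p = 0.0239), *Rps6* (0.10 ± 0.037; adjusted p = 0.0442) and *Rps4l* (-0.19 ± 0.031; adjusted p = 0.00082). These 4 calls held with the library total added to the blocked fit (adjusted p = 0.00129, 0.03, 0.0348 and 0.0042), in which 6 genes were higher. The blocked count of higher genes was 1 without the 0X library of passage 15 or the 2-DG library of passage 15 or 16, and the count of lower genes was 6 without that 0X library and 2 without that 2-DG library of passage 16. Without the block the lowest values were those of the paralogs *Rpl10l* (-0.20) and *Rps4l* (-0.19) and, among core genes, *Rpl21* (-0.13), *Rpl29* (-0.12), *Rpl35* (-0.11) and *Rpl27* (-0.10). The 6 highest were *Rpl10* (0.20), *Rpl22l1* (0.12), *Rps29* (0.11), *Rpl17* (0.10), *Rps6* (0.10) and *Rpl15* (0.087). Of these 12 genes, the 4 named above as called passed the test with the block and the other 8 did not.

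**Figure D3:**
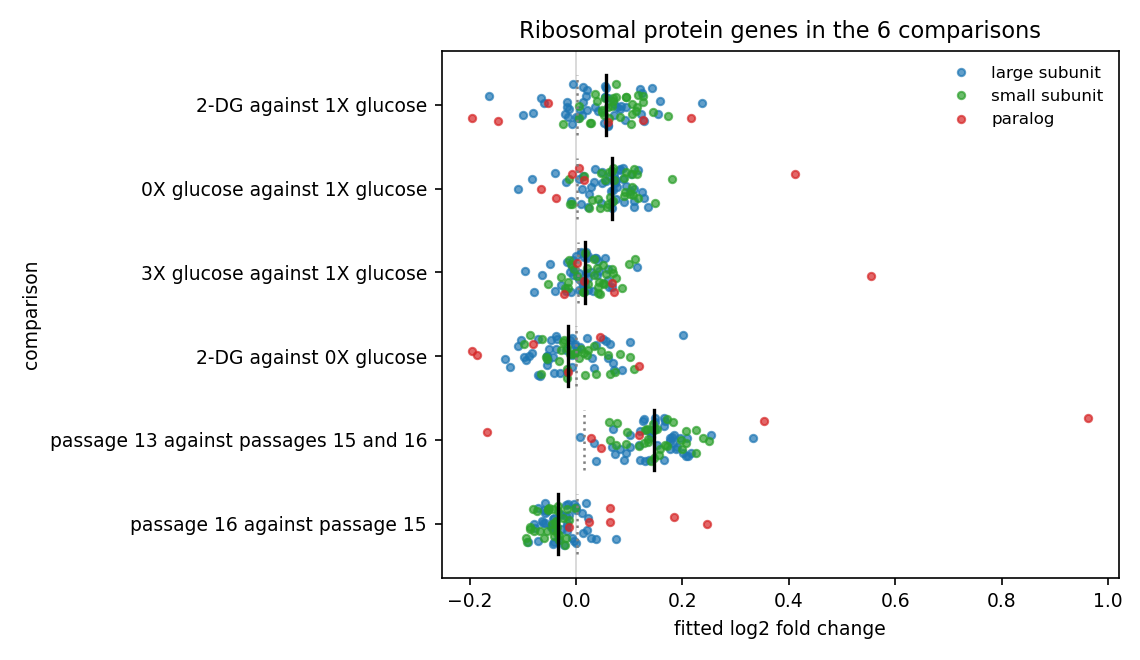
Fitted log2 fold changes (horizontal axis) of the 83 tested ribosomal protein genes in 6 comparisons (vertical axis), with 1 point per gene, coloured as large subunit, small subunit or paralog. The solid bar is the median of these genes and the dotted bar that of all 16966 genes. The medians of the 4 comparisons of treatments lie between -0.015 and 0.068, that of passage 13 lies at 0.15, and the point near 1 is *Rpl10l*, which had 3 to 17 counts.

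The largest common difference among these genes was between passages. In passage 13 they were higher than in passages 15 and 16 in a fit of treatment and passage: 70 of 83 genes were called higher and 1 lower by edgeR's quasi-likelihood test, where 23.3% of all genes were called higher and 22.8% lower. The 4 libraries of a passage had different treatments and are not replicates of the passage. The p-values for passages therefore measure the spread between libraries and not that between repeats of a passage. The median log2 fold change was 0.15 (all genes 0.015), and 82 of 83 were above 0. By subunit, 27 of 31 small, 40 of 46 large and 3 of 6 paralog genes were called higher. In 47 of 83 genes all 4 libraries of passage 13 lay above all 8 others, a pattern that 6.3% of all tested genes had. In 0 of 83 all 4 lay below, as they did in 1323 of the 16966 tested genes. The count of genes called higher was 61 to 67 when the libraries of a treatment were left out, 63 with the library total as a covariate, 71 by DESeq2 and 40 when the most abundant transcript of each gene was counted alone.

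Across the treatments of a passage these genes varied less than across the passages of a treatment. The SD of log2 CPM had a median of 0.067 within a passage and of 0.11 within a treatment, and it was smaller within a passage in 75 of 83 genes (90.4%). Over all tested genes the medians were 0.17 and 0.17, with 51.0% smaller within a passage. The same held for the small (93.5%) and the large subunit (89.1%).

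*Rpl22l1* had the largest difference in passage 13 of any tested ribosomal protein gene with more than 17 counts. This gene is a paralog of *Rpl22*, whose protein is known to repress it. Its levels in 0X, 1X and 3X glucose and 2-DG were 108.5, 107.1, 103.4 and 113.2 CPM in passage 13, 80.26, 82.74, 85.76 and 91.51 CPM in passage 15 and 84.44, 82.17, 78.71 and 91.98 CPM in passage 16. All libraries of passage 13 lay above all others, and in each passage 2-DG was the highest. The log2 fold change of passage 13 was 0.35 ± 0.028 (SE; edgeR adjusted p = 6.44e-06), a rise of 27.7%, but 0.090 (adjusted p = 0.888) when its most abundant transcript was counted alone. *Rpl22* was at 458.5 to 497.6 CPM in passage 13, 397.6 to 415.6 CPM in passage 15 and 392.2 to 419.3 CPM in passage 16, so that both genes were higher in passage 13.

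*Rpl17*, which lines the exit tunnel, was next with 0.33 ± 0.043 (SE; edgeR adjusted p = 0.000125), and 0.77 (adjusted p = 0.00704) when its most abundant transcript was counted alone. It was at 126.2 to 139.4 CPM in passage 13 and at 94.69 to 114.1 CPM in the other libraries. *Rpl38*, known for its part in the translation of Hox mRNAs, was at 138.9 to 163.8 CPM in passage 13 and 115.3 to 130.6 CPM in the others, with a log2 fold change of 0.25 ± 0.047 (adjusted p = 0.00131, and 0.0894 when its most abundant transcript was counted alone). *Rps23*, a protein of the decoding centre, was at 320.4 to 342.5 CPM against 266.7 to 301.4 CPM (0.25 ± 0.032, adjusted p = 0.000121), and *Rps27a*, which is made as a fusion with ubiquitin, at 256.6 to 270.3 CPM against 212.6 to 240.2 CPM (0.24 ± 0.030, adjusted p = 0.000102). None of these groups overlapped. The genes with the smallest values were *Rpl19* (0.0068), *Rpl32l* (0.028), *Rpl23* (0.033), *Rpl32* (0.038) and *Rpl7l1* (0.047), and none of them passed the test. The 12 genes not called also included *Rpl13a*, *Rpl7a*, *Rps13*, *Rps15* and *Rps26*.

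*Rps4l* went the other way. It was at 145.9 to 168.2 CPM in passage 13, 154.4 to 177.0 CPM in passage 15 and 171.8 to 206.6 CPM in passage 16, with a log2 fold change of -0.17 ± 0.024 (SE; edgeR adjusted p = 0.000218) in passage 13. It was also the 1 gene called higher in passage 16 against 15 (0.18 ± 0.027, adjusted p = 0.00885), where 2.19% of all genes were higher and 2.01% lower. That call was lost without the libraries of 1X, 0X or 3X glucose (adjusted p = 0.0718, 0.0706 and 0.0996). Between these passages the median of the 83 genes was -0.034 (all genes 0.00090), with 16 above 0. None was called lower by edgeR, where the lowest were *Rps4x* (-0.094, adjusted p = 0.109), *Rps14* (-0.093), *Rpl12* (-0.091), *Rps15* (-0.087), *Rps18* (-0.086) and *Rps3a1* (-0.080), and DESeq2 called 1 lower, *Rps4x* (adjusted p = 0.0379). The median was 0.0065 with the library total as a covariate.

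**Figure D4:**
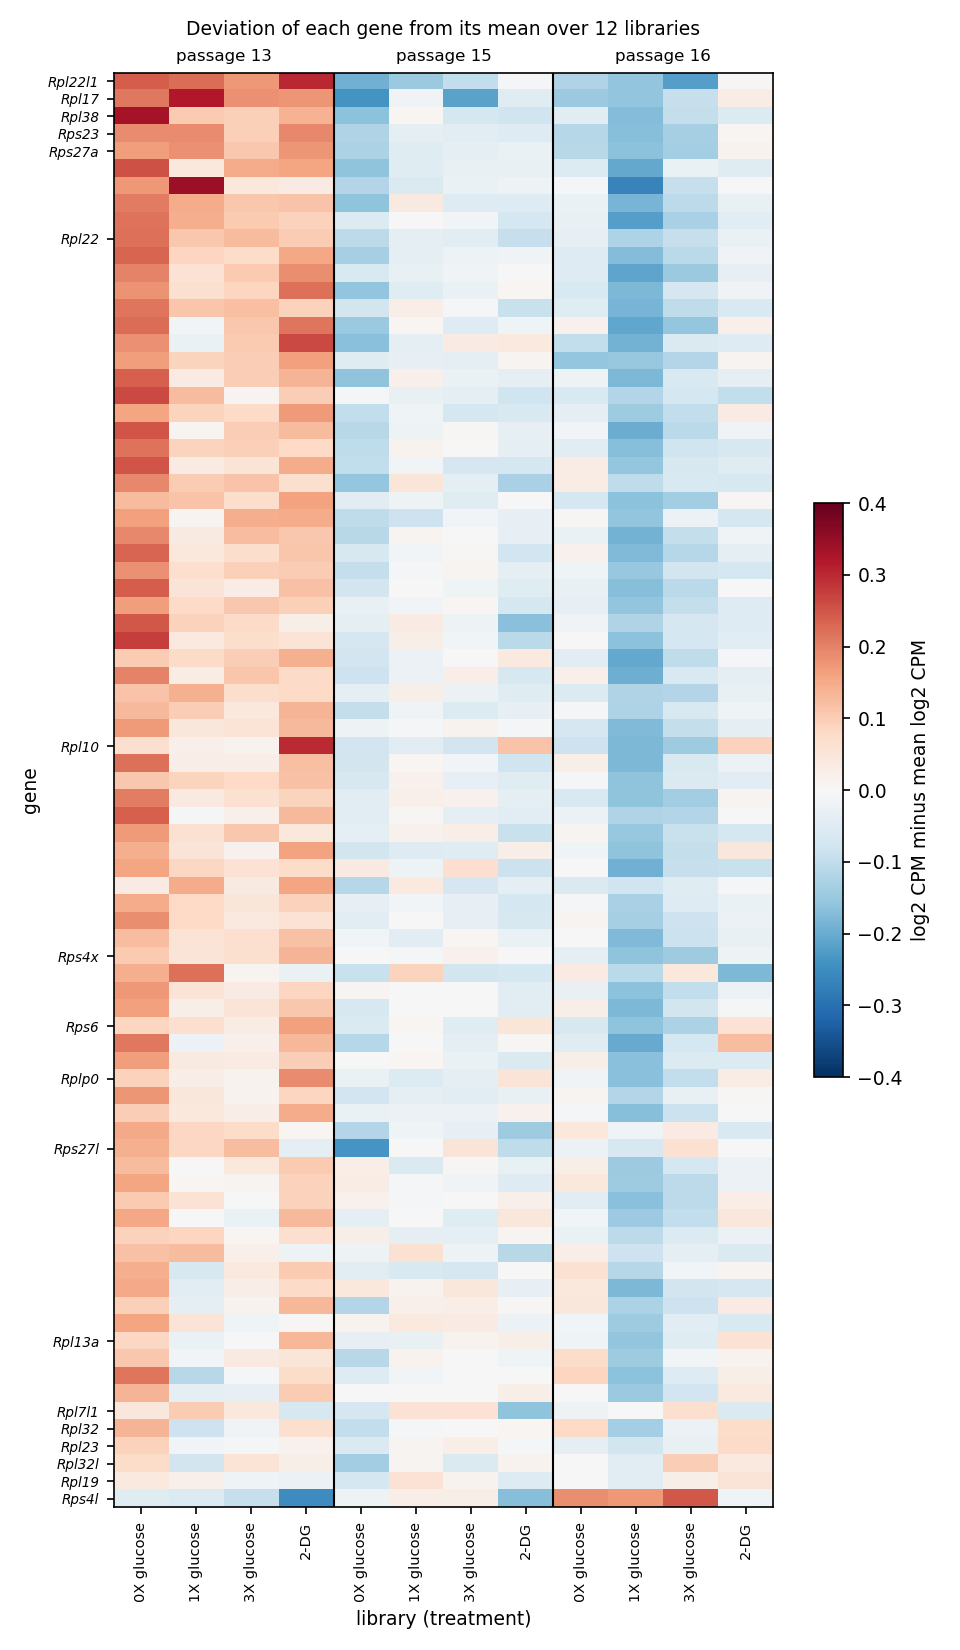
Difference of log2 CPM from the mean of a gene over the 12 libraries (colour scale, -0.4 to 0.4), for 82 of the 83 tested genes (rows, ordered by their mean in passage 13) and the libraries of passages 13, 15 and 16 (columns, in the order 0X, 1X and 3X glucose and 2-DG). *Rpl10l*, with 3 to 17 counts, is left out. Row labels are given for 18 genes. The 4 columns of passage 13 are mostly above the mean, most of all in the top row, *Rpl22l1*, the 1X column of passage 16 is mostly below it, and the bottom row, *Rps4l*, has its highest values in passage 16.

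Passage 13 differed in other ways too. The 6 ES cell markers summed to 145.0 to 222.1 CPM in passage 13, 74.23 to 127.8 CPM in passage 15 and 75.01 to 128.2 CPM in passage 16. Of these 6, 3 were called higher (50%, where 23.3% of all genes were) and 1, *Klf4*, lower (16.7%, where 22.8% were). Most of the ES cell marker sum was *Sox2*, which neural progenitors express too, at 127.5 ± 20.8 CPM in passage 13 (SD, n = 4) and 54.14 ± 13.9 and 48.54 ± 12.5 CPM in passages 15 and 16. The 4 neural markers summed to 48.85 to 89.38, 35.87 to 54.84 and 32.67 to 51.25 CPM, with 3 called higher (75%, where 23.3% of all genes were) and 1 lower (25%, where 22.8% were). The 2 endoderm markers summed to 0.498 to 0.878, 1.80 to 3.79 and 3.06 to 6.68 CPM, both called lower (where 22.8% of all genes were). The 6 primitive streak and mesoderm markers summed to 307.4 to 665.7 CPM in passage 13. In passages 15 and 16 they summed to 515.4 to 796.1 and 471.4 to 724.2 CPM, so that the ranges overlapped. Of these 6, *T* and *Mixl1* were called higher in passage 13 (33.3%, where 23.3% of all genes were), and *Tbx6*, *Meox1* and *Tcf15* lower (50%, where 22.8% were). Their log2 fold changes ran from -1.77 (*Meox1*) to 0.631 (*T*). The 4 markers of fibroblasts, which serve as feeders for ES cells, summed to 8.413 to 9.896 CPM in passage 13 and to 8.393 to 13.16 CPM in the others. Of these 4, 0 were called higher in passage 13 (where 23.3% of all genes were) and 2 lower (50%, where 22.8% were). Short transcripts outside the ribosomal protein genes were also higher: of 479 other genes with a transcript under 700 bases, 146 (30.5%) were called higher and 18 (3.76%) lower with a median of 0.13, and of 838 genes of 700 to 1100 bases 309 (36.9%) and 57 (6.8%) with a median of 0.11. Among 13415 other genes of 1100 bases or more, 3135 (23.4%) were called higher and 3590 (26.8%) lower. Of the core genes, 25 of 30 (83.3%), 24 of 28 (85.7%) and 18 of 19 (94.7%) were called higher in these 3 classes of length, with medians of 0.17, 0.14 and 0.15. The part of cell composition and of RNA quality in the passage difference was not tested. Across the 77 core genes the log2 fold change of passage 13 had r = -0.41 with log2 mean CPM and r = -0.15 with log2 transcript length, given as descriptions over genes of the same libraries. Core genes with a start-site tract had a median of 0.15, as had those without.

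Of the 8 paralogs, *Rpl39l*, *Rpl3l* and *Rpl10l* were at or near the limit of detection, and *Rps27l* was nearly as abundant as its parent. *Rpl39l* had 6 counts in the 2-DG library of passage 13 and 0 in the 11 others, and *Rpl3l* had 0 to 6 counts, and neither was tested, while *Rpl39* had 5343 to 9003 and *Rpl3* 23082 to 36736 counts per library. *Rpl10l* had 3 to 17 counts. Its log2 fold changes against 1X glucose were 0.22 in 2-DG, 0.41 in 0X and 0.55 in 3X glucose, with an SE of 0.60 in the first, and none was called. Its log2 fold change of 0.96 ± 0.35 (SE; edgeR adjusted p = 0.0448) in passage 13 was called, but the call was lost without the libraries of 1X glucose, 3X glucose or 2-DG (adjusted p = 0.156, 0.131 and 0.107) and by DESeq2 (0.149). *Rpl32l*, at 10.75 to 12.67 CPM against 523.4 to 632.3 CPM of *Rpl32*, had no call in any comparison. *Rps27l*, a p53 target, was at 132.6 to 172.6 CPM beside 139.6 to 188.4 CPM of *Rps27*. It had no call between treatments, and its call in passage 13 (0.12 ± 0.044, adjusted p = 0.0479) was lost without the 1X, 0X or 3X libraries (adjusted p = 0.142, 0.143 and 0.0929).

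Within genes, the split of counts between transcripts varied from library to library. Of the tested genes, 30 had at least 2 transcripts with 5% or more of their counts, and the largest range of a transcript's share had a median of 18.9 percentage points over these genes. In 7 genes (*Rpl17*, *Rpl19*, *Rpl22*, *Rpl29*, *Rpl36*, *Rps19* and *Rps27l*) a transcript held under 1% in some libraries and over 10% in others. A noncoding transcript of *Rps27l* had 20.6% to 25.3% in the 1X libraries of passages 13 and 16 and the 2-DG library of passage 16, and 0% in the 9 others. A noncoding transcript of *Rpl22* had 0.26% to 0.4% in the 4 libraries of passage 13 and 0.33% in the 3X library of passage 16, and 20.8% to 37.3% in the 7 others. The most abundant transcript of *Rpl22l1* had 67.3% in 3X glucose of passage 15 and 63.7% in 1X glucose of passage 16, and 29.8% to 33.5% elsewhere. The high shares occurred in libraries of different treatments, and all shares are estimates of how reads were apportioned.

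The symbol rule misses some ribosomal protein genes. Among them, *Rpl36al*, *Rack1* (a signalling scaffold on the small subunit) and *Fau* (made as a fusion with a ubiquitin-like protein) had log2 fold changes of 0.17, 0.12 and 0.079 in 2-DG against 1X glucose. None was called without the block, and the first 2 were with it (edgeR adjusted p = 0.0151 and 0.0166). In passage 13 all 3 were higher.

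Other genes of the ribosomal protein system were read from lists written with earlier results of these data known. Of 18 translation factors and partners with TOP mRNAs, 5 were higher (27.8%, where 9.12% of all genes were) and 0 lower (where 8.51% were) in 2-DG against 1X glucose without the block: *Eif4b* (log2 fold change 0.25, edgeR adjusted p = 0.00747), *Eef2* (0.17, 0.0105), *Eif3f* (0.29, 0.0131), *Pabpc1* (0.24, 0.0249) and *Eef1g*. The list's median was 0.030. With the block 7 were higher (38.9%, where 21.1% of all genes were) and 0 lower (where 20.2% were). In passage 13, 10 were higher (55.6%, where 23.3% of all genes were) and 1 lower (5.56%, where 22.8% were). *Eef2*, the translocation factor, was at 3290 ± 71.4 CPM (SD, n = 3) in 2-DG, 3234 ± 26.4 in 0X, 2920 ± 52.9 in 1X and 2931 ± 25.7 in 3X glucose.

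Of 15 regulators of mTORC1 and of TOP mRNAs, 3 were higher (20%) and 1 lower (6.67%) in 2-DG against 1X glucose, where 9.12% and 8.51% of all genes were. With the block 5 were higher (33.3%) and 1 lower (6.67%), where 21.1% and 20.2% of all genes were. *Sesn2*, a sensor that restrains mTORC1, had 0.42 (edgeR adjusted p = 0.00165), *Akt1s1*, which encodes the mTORC1 inhibitor PRAS40, 0.41 (0.0191), *Rps6kb1*, an S6 kinase, 0.23 (0.0295), and *Mycn*, a transcription factor of growing progenitors, -0.66 (0.00281). In passage 13, 2 were higher (13.3%, where 23.3% of all genes were) and 10 lower (66.7%, where 22.8% were), with a median of -0.17. The list mixes parts of mTORC1 with its inhibitors, so this median gives no direction of mTORC1 activity. Of 12 chaperones and couriers of ribosomal proteins, 0 were higher and 2 lower (16.7%, where 8.51% of all genes were) in 2-DG against 1X glucose. With the block 0 were higher and 3 lower (25.0%, where 20.2% of all genes were). The lower genes without the block were *Tsr2*, the chaperone of Rps26 (-0.30, adjusted p = 0.00688), and *Grwd1*, the chaperone of Rpl3 (-0.18, 0.0149). In passage 13, 4 of the 12 were higher (33.3%) and 5 lower (41.7%), where 23.3% and 22.8% of all genes were.

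Of 9 host RNAs of snoRNAs, 1 was higher in 2-DG against 1X glucose (11.1%, where 9.12% of all genes were) and 0 lower (where 8.51% were). The higher one was *Snhg3* (0.27, edgeR adjusted p = 0.0432). With the block 2 were higher (22.2%, where 21.1% of all genes were) and 3 lower (33.3%, where 20.2% were). In passage 13, 8 of 9 were higher (88.9%, where 23.3% of all genes were; median 0.22). *Gas5*, a TOP RNA whose level depends on translation, was at -0.28 in 2-DG (adjusted p = 0.171, and 0.00113 with the block) and at 0.29 in passage 13 (adjusted p = 8.52e-05). Of 12 p53 targets, 5 were higher in 2-DG against 1X glucose (41.7%, where 9.12% of all genes were) and 8 against 0X glucose (66.7%, where 9.86% were), and 0 were lower in either: *Trp53inp1* (0.61, adjusted p = 0.00234), *Ccng1* (0.34, 0.00836), *Eda2r* (0.25, 0.011) and *Mdm2* (0.28, 0.0226) had the smallest p-values against 1X glucose. The count was 2 higher and 2 lower in passage 13 (16.7% each, where 23.3% and 22.8% of all genes were).

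Mitochondrial ribosomal protein genes encode proteins of the separate ribosome of mitochondria. Of 78 genes, 3 (3.85%) were higher and 11 (14.1%) lower in 2-DG against 1X glucose, where 9.12% and 8.51% of all genes were, and 5 (6.41%) and 27 (34.6%) with the block, where 21.1% and 20.2% were. Their median was -0.082 without the block. *Mrpl2* (-0.44, edgeR adjusted p = 0.000551), *Mrps31* (-0.36, 0.00558), *Mrps33* (-0.31, 0.00673) and *Mrpl20* (-0.25, 0.00842) had the smallest p-values. In passage 13, 32 were higher (41.0%, where 23.3% of all genes were) and 4 lower (5.13%, where 22.8% were), with a median of 0.081. A start-site tract was present in 24.6% of the 69 mitochondrial genes with a window and CCGGAAG in 37.7%. In 0X and 3X against 1X glucose, 0 genes of any of these lists were called.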

How the data were processed

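Cells and libraries were as described above. The authors removed adapters with Trim Galore, mapped directional polyA libraries with HISAT2 (mm10, per the submitters' processing notes), removed duplicates with Picard and estimated transcript abundance with StringTie; the deposited files hold estimated counts of 120312 RefSeq transcripts per library as whole numbers, and removal of duplicates can compress abundant short transcripts. Versions and the annotation release are not given in the sources used here. The 3 deposited tables of the authors' own comparisons hold fold changes and p-values and were not used.

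Transcript counts were summed per symbol. Genes were filtered with filterByExpr (16966 kept) and tested with edgeR 4.0.16 (quasi-likelihood, TMM) in R 4.3.3 over all 4 groups, with Benjamini-Hochberg adjustment over all tested genes at 0.05. Passages were compared in a fit of treatment and passage, in which no passage has a replicate. The fit with the passage as a block is the alternative, because the labels give 1 library of each group the same ES cell passage number; what else these share is not given. Deviations from group means over all tested genes correlated at 0.0963 to 0.623 in same-passage pairs and at -0.44 to 0.191 in others, and over the ribosomal protein genes alone at -0.344 to 0.92 and -0.902 to 0.7. With 3 against 3 libraries an exact permutation test cannot go below 0.1. Further alternatives were DESeq2 1.42.0, median-of-ratios factors, no filter, the library total as a covariate, the most abundant transcript alone, TMM factors without the ribosomal protein genes and leaving out libraries; the blocked fits with a second change and the library total in passage fits were added after seeing the data. Scripts were tested on simulated data.

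Transcript lengths came from GENCODE M21 and promoter windows from RefSeq on GRCm38.p6. Genes were named by a fixed rule: the 6 highest and 6 lowest per comparison, the genes called where at most 12 were, the paralogs with their parents, the 5 highest and lowest per length, and up to 4 of each other list. The genes called with the block, *Rps4x* and *Eef2* levels, and genes with shifting transcript shares were named after their values were seen. Some genes that the rule names are not reported here. The ribosomal protein genes and all lists were chosen with earlier results of these data known.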

Additional observations from a re-analysis of the deposited data

Results flagged for a closer look

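Among 63 sets of 4 libraries of a passage, 2 held a library far from the 3 others (the gap to the nearest of them, divided by the range, was above Dixon's 95% critical value). Chance marks about 1 in 20 sets of independent replicates. Here the 4 libraries of a set had different treatments and the sets share libraries, so that rate is only a rough guide. *Rpl32* was at 537.2 CPM in 0X glucose of passage 15, where the others were at 572.6 to 578.8 CPM (gap over range 0.851). *Rps23* was at 320.4 CPM in 3X glucose of passage 13, where the others were at 341.9 to 342.5 CPM (0.969).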

How the results depend on the processing

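With the replicate block on the passage, the counts in 2-DG against 1X glucose went from 0 higher and 1 lower to 16 and 2, and against 0X glucose from 0 and 0 to 3 and 1; 0X and 3X against 1X glucose had 0 calls with and without it. Against 1X glucose the higher count was 1 with median-of-ratios factors, 2 by DESeq2 and 0 to 1 when a library was left out, and the lower count was 0 with no filter, the library total, the most abundant transcript alone or only the 2 groups, and 0 to 1 when a library was left out. In the blocked fit the 16 became 2 to 16 when a library was left out, 1 with the library total and 5 with the most abundant transcript, and the 2 became 2 to 4 and 1. Against 0X glucose the higher count was 1 with the library total, and the blocked 3 became 1 to 4, 6 and 1 in the same order and the blocked 1 became 1 to 6. With the library total the medians were -0.076 (2-DG), -0.122 (0X) and -0.111 (3X) against 1X glucose, and the blocked median of 0X was -0.0588. The cause was not tested.

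In passage 13 the count of 70 was 40 with the most abundant transcript alone, where *Rpl21* (-0.017), *Rpl29* (-0.29) and *Rpl34* (-0.11) changed sign. In passage 16 against 15 the 1 higher gene became 0 with the library total, with the most abundant transcript and without the 1X, 0X or 3X libraries, and 1 was lower by DESeq2. Of 3758 values of named genes under alternatives, 67 lost and 30 gained a call and 3 called values changed sign. The other 3658 kept their side of the threshold, 514 uncalled values with a changed sign among them. Limits are 3 libraries a group, 1 line, and depth that differs with the group.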
